A study of Rattus norvegicus with 16 samples.

Results

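The sensors through which liver cells detect foreign chemicals were followed here as 9 genes. They are the aryl hydrocarbon receptor Ahr, its dimer partners Arnt and Arnt2, its repressor Ahrr, the pregnane X receptor Nr1i2 (PXR), the constitutive androstane receptor Nr1i3 (CAR), the partner of both of these Rxra, and the liver nuclear receptors Hnf4a and Ppara. They were found on the arrays by the RefSeq transcript that each probe carries, which gave 11 of the 30367 probes, with 2 probes each for Arnt2 and Nr1i3. A probe was tested when at least 4 of the 16 arrays marked it well above background in the liver signal, and 7 of the 9 genes met this, among 13139 transcripts tested in all. Arnt and Ahrr did not.

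Each array held liver RNA of 2 male Sprague Dawley pups aged 21 days, pooled and labelled with Cy5, beside 1 common RNA labelled with Cy3. The 4 groups had 4 arrays and 8 pups each. Dams of the 0.5M group received 0.5 mg/kg/day of organochlorine pesticides, polychlorinated biphenyls (PCBs) and methylmercury mixed in corn oil, and dams of the M group received 1.0 mg/kg/day of the same mixture. Dams of the AhR group received agonists of the aryl hydrocarbon receptor (non-ortho-PCBs, polychlorinated dibenzodioxins and dibenzofurans) at 1.8 ng/kg/day in dioxin equivalents, and dams of the C group received corn oil alone. All dams were dosed through gestation and lactation, and these pups stayed with their own mothers. The labels do not give the litter of a pup, and the tests below count each array as independent, which overstates the evidence wherever littermates were spread over arrays. The question was whether the mRNA of the sensors itself changed with exposure.

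As background, the aryl hydrocarbon receptor waits in the cytoplasm with heat shock protein chaperones. Once it binds a dioxin-like ligand it moves to the nucleus, pairs with ARNT and binds DNA at a GCGTG core, and Cyp1a1 is its best known target. CAR and PXR answer to many drugs and pesticides, pair with RXRA and drive Cyp2b and Cyp3a genes in liver. HNF4A keeps hepatocyte genes on, and PPARA drives fatty acid oxidation.

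No tested sensor or partner passed the test in any comparison between groups. Cyp1a1, a target of the aryl hydrocarbon receptor, rose several-fold in all 3 exposed groups. Values are log2 ratios of the liver signal to the common Cy3 RNA. The largest difference from C among the 7 tested genes was that of Ppara in AhR livers, 0.37 ± 0.12 on the log2 scale (difference ± SE, n = 4 arrays a group), with an adjusted p of 1 by limma. Cyp1a1 differed from C by 3.74 in 0.5M livers, 4.58 in M livers and 2.46 in AhR livers on the same scale. The sensors' differences were small beside these, but most of their probes were dim, and the widest 95% interval against C still reached 2.07-fold when the dim signals were left without an offset.

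The arrays differed in depth between the 2 slides that carried them. Probes well above background in Cy5 numbered 7079 to 13765 on slide 1, which held replicates 1 and 2 of each group, and 12994 to 15685 on slide 2, which held replicates 3 and 4. All 7 tested sensors were well above background on each array of slide 2, but only 3 to 7 of them on the arrays of slide 1, with 3 on M replicate 1, 0.5M replicate 2 and AhR replicate 1. The 10 hepatocyte markers were well above background on every array. Transcripts of other tissues also varied between arrays. Summed linear Cy5/Cy3 ratios over 11 skeletal muscle markers reached 119.3 in 0.5M livers, 82.07 in M livers and 6.312 in AhR livers, against 5.676 in C livers, with the high values in 0.5M replicate 4 and M replicate 2. Pancreas markers reached 12.29 in 0.5M, 33.33 in M and 20.25 in AhR livers, against 11.56 in C livers, and fat markers reached 5.562 in 0.5M, 4.833 in M and 4.335 in AhR livers, against 17.64 in C livers. The 5 arrays that stood out were 0.5M replicate 4, M replicates 1 and 2, AhR replicate 2 and C replicate 2. Stellate cell and fibroblast markers (7 genes) reached 25.6 in 0.5M, 32.67 in M and 9.27 in AhR livers, against 9.892 in C livers, with the highest medians again in M replicate 2 and 0.5M replicate 4. The part of these transcripts in the sensors' values was not tested. The sensors' differences were also computed without the 5 arrays. In pooled tissue, fewer cells of a type and less RNA per cell cannot be told apart.

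The Cy3 RNA was labelled as a universal rat reference from 14 cell lines but carried hepatocyte transcripts at levels near those of the livers. What RNA it was instead, if any, was not tested. Its log2 signals, taken without background correction, correlated with those of the liver channel at 0.856 to 0.976 across spots. No such value for a cell line reference is given here. The 10 hepatocyte markers had mean log2 ratios of liver over Cy3 between -0.58 and 0.92. The genes lowest in the pups' livers relative to the Cy3 RNA, picked after their values were seen, included the major urinary protein gene Mup4l1 (562-fold higher in Cy3), Cyp4a2 (176-fold) and Cyp2c13 (49.0-fold), and the 3 highest were H19 (3.75-fold higher in the livers), Bex2 (2.85-fold) and Afp (2.84-fold), of which H19 and Afp are known from fetal liver. The Cy3 RNA was common to all arrays, so the comparisons between groups do not need it to be what its label says. Ratios of a single group, in contrast, give a level relative to this RNA only and not relative to cell lines.

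The 300 bases around the start site (250 before and 50 after, RefSeq, build GRCr8) were found for all 9 genes in 10 windows, as Hnf4a has 2. The GCGTG core was searched on both strands. It was in the windows of Arnt, Ahrr and Ppara and not in those of the other 6 genes, and 29.7% of all 33469 rat windows hold it. These 3 windows are shown because they hold GCGTG, the core that the aryl hydrocarbon receptor binds. Capitals mark the core, written CACGC where it lies on the other strand.
Arnt, chr2:185686453-185686752, plus strand: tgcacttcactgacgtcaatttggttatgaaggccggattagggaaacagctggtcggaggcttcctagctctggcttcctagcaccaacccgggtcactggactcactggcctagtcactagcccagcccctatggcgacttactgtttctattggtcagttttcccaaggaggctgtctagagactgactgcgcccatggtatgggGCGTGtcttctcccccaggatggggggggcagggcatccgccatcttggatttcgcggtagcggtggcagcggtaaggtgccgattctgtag
Ahrr, chr1:30821969-30822268, plus strand: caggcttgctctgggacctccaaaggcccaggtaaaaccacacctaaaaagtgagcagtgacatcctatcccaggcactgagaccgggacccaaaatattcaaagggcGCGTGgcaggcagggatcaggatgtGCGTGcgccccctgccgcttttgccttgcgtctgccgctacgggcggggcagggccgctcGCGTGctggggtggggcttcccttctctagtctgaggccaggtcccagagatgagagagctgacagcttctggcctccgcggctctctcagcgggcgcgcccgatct
Ppara, chr7:118712357-118712656, plus strand: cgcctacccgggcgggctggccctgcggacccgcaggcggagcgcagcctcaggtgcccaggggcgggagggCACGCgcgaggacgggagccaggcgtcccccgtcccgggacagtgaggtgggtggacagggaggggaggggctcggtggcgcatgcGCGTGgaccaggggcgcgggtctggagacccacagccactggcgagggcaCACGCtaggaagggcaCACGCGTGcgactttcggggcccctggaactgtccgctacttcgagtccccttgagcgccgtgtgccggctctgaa
The Ppara window holds 5 cores, 2 on the plus strand and 3 on the minus strand, with 1 pair overlapping. This window has 73.7% G and C, and the share among windows of like G and C content is not given here. The Ahrr window holds 3 cores and that of Arnt 1. The half-site of the nuclear receptors, AGGTCA, was in none of the 10 windows on either strand and in 16.2% of all windows. A match is a description of letters and not of binding, which was not measured here.

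By limma with Benjamini-Hochberg adjustment over 13139 transcripts, 0 of the 7 tested sensors passed an adjusted p of 0.05 in 0.5M livers against C livers, where 0.0152% of all transcripts did. At an unadjusted p under 0.05, 1 sensor passed there (Nr1i2), against 6.52% of all transcripts. In M livers against C livers 0 of 7 passed, beside 0.32% of all transcripts, and 0 of 7 had an unadjusted p under 0.05, beside 10.2% of all. In AhR livers against C livers 0 of 7 passed, beside 0.00761% of all, and 2 of 7 (Arnt2 and Ppara) had an unadjusted p under 0.05, beside 3.76% of all. The 2 doses of the mixture, M against 0.5M, gave 0 of 7, beside 0.0152% of all, and 1 of 7 at an unadjusted p under 0.05 (Nr1i3), beside 6.76% of all. An F test over the 4 groups gave 0 of 7, beside 0.175% of all, and 3 of 7 at an unadjusted p under 0.05 (Arnt2, Nr1i3 and Ppara), beside 9.34% of all. Groups whose arrays did not overlap were seen for 1 of 7 sensors in 0.5M against C (Ahr, beside 3.04% of all transcripts) and for 2 of 7 in AhR against C (Arnt2 and Ppara, beside 2% of all). They were seen for 0 of 7 in M against C (4.19% of all) and for 0 of 7 in M against 0.5M (2.8% of all). All of this is with the offset of 50, and without it the Arnt2 arrays of AhR and C livers overlapped. With 7 genes, these counts are descriptions.

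The direction of the 7 differences varied with the group. In 0.5M livers 6 of 7 sensors lay below C, with a median log2 difference of -0.16, where the median of all transcripts was -0.0035 and 48.8% of transcripts lay above C. In AhR livers 6 of 7 lay above C, with a median of 0.18, where the median of all transcripts was 0.0002 and 50.1% lay above C. In M livers 4 of 7 lay above C, with a median of 0.037, where all transcripts had a median of -0.0021 and 49.4% lay above. None of these differences passed the test gene by gene, and all 3 comparisons share the C arrays. With no offset added to the signals, the count in M livers turned to 2 of 7 above C (Nr1i3 and Ppara) with a median of -0.063, where 46.4% of all transcripts lay above C, and the counts were 1 of 7 in 0.5M and 5 of 7 in AhR livers.

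Leaving out the 5 arrays with transcripts of other tissues turned 2 of these signs. Nr1i3 in 0.5M livers came to 0.094, against -0.18 with all arrays, and Arnt2 in M livers came to 0.095, against -0.099. Other differences from C in M livers moved by more than 1.5 times, to 0.18 for Ahr, -0.029 for Nr1i2, 0.37 for Nr1i3, 0.21 for Rxra, -0.11 for Hnf4a and 0.058 for Ppara. M livers then kept only replicates 3 and 4, both on slide 2. For M, leaving out transcripts of other tissues therefore cannot be told apart from leaving out slide 1. Rxra in AhR livers came to 0.11. The sensors above C then numbered 2 of 7 in 0.5M, 5 of 7 in M and 6 of 7 in AhR livers, where 51.3%, 52.2% and 53.5% of all transcripts lay above C, and none passed the test by limma.

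**Figure D1:**
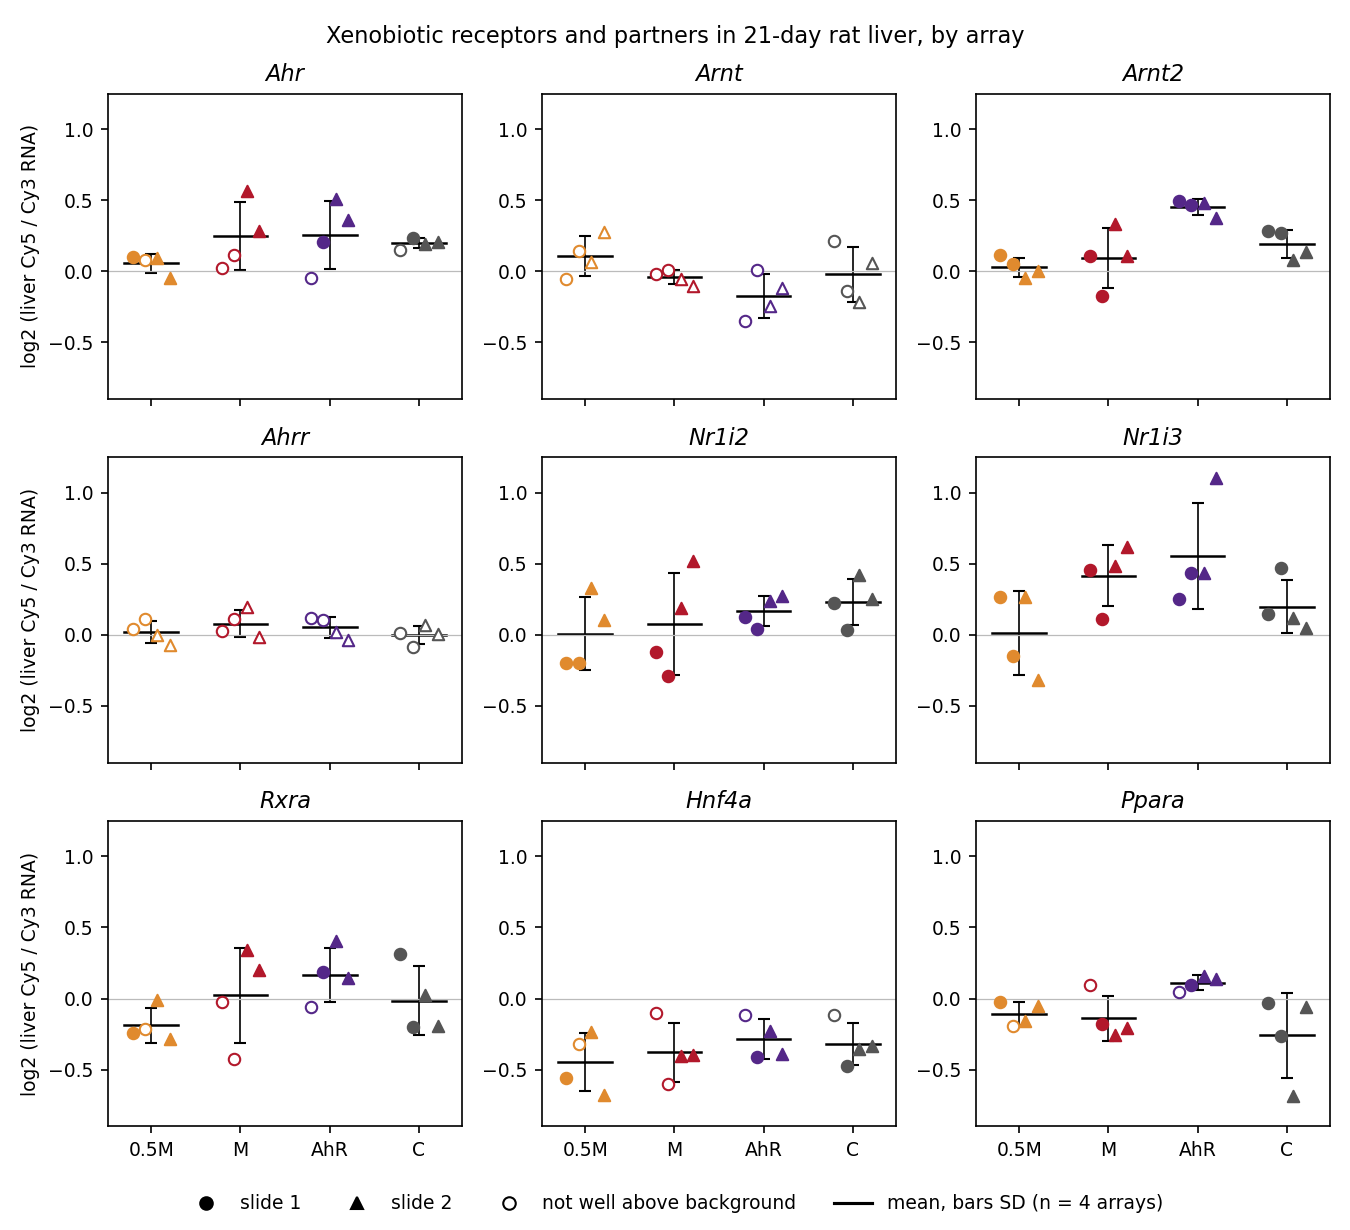
Log2 ratio of liver (Cy5) to the Cy3 RNA for each of the 9 genes on each of the 16 arrays, by group. Circles are slide 1 and triangles slide 2, open symbols were not well above background in Cy5, and lines and bars are the mean and SD of 4 arrays. Values are with the offset of 50. Arnt and Ahrr have open symbols throughout, and Arnt2 and Ppara in AhR livers sit above every C array.

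Ahr (NM_013149, chromosome 6) encodes the dioxin receptor itself. Its log2 ratios, in order of replicate, were 0.096, 0.08, 0.090 and -0.046 in 0.5M livers, 0.021, 0.12, 0.57 and 0.28 in M livers and -0.051, 0.21, 0.51 and 0.36 in AhR livers, against 0.15, 0.24, 0.19 and 0.20 in C livers. The 4 arrays of 0.5M livers all lay below the lowest C array, while M and AhR livers spread to both sides of the C arrays. The probe was well above background on only 11 of 16 arrays. C replicate 1, the lowest C array, and 0.5M replicate 2 were not among them, so this separation rests partly on signals near background. Group means ± SD (n = 4) were 0.055 ± 0.068 in 0.5M, 0.25 ± 0.24 in M and 0.26 ± 0.24 in AhR livers, against 0.20 ± 0.036 in C livers. The differences from C were -0.14 ± 0.11 (SE) for 0.5M with an adjusted p of 0.82, 0.051 ± 0.11 for M with 0.911 and 0.060 ± 0.11 for AhR with 1. So Ahr mRNA ranked AhR, M, C and 0.5M from high to low, with no pair of neighbours past the test. The 0.5M difference came to -0.074 without 0.5M replicate 4 and to -0.034 without the 5 arrays with transcripts of other tissues.

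Arnt (NM_012780, chromosome 2) and Ahrr (NM_001024285, chromosome 1) gave no measured level. Arnt is the partner without which the ligand-bound receptor does not bind DNA, and Ahrr, a target of the receptor, competes for that partner. The single probe of Arnt, printed in 1 spot, and the single probe of Ahrr stayed near background in the liver signal on all 16 arrays. In the Cy3 channel Arnt was well above background on 3 arrays and Ahrr on 0. No fold is given for either, since both sides of each comparison lie below background. Ahrr had no measurable signal in M livers either, where Cyp1a1 was highest.

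Arnt2 (NM_012781, chromosome 1), the close relative of Arnt best known from brain, had 2 probes. The brighter one was well above background on all 16 arrays, with log2 ratios of 0.11, 0.048, -0.047 and 0.0032 in 0.5M livers, 0.11, -0.18, 0.33 and 0.10 in M livers and 0.50, 0.47, 0.48 and 0.37 in AhR livers, against 0.28, 0.27, 0.079 and 0.14 in C livers. With the offset, all 4 AhR arrays lay above every array of the other 3 groups, and the 0.5M arrays lay low with little spread. Without the offset, AhR replicate 4 (0.49) lay below C replicate 1 (0.51). The means were 0.029 ± 0.067 in 0.5M, 0.093 ± 0.21 in M and 0.45 ± 0.055 in AhR livers, against 0.19 ± 0.10 in C livers (SD, n = 4). Arnt2 thus ranked AhR, C, M and 0.5M from high to low. The difference of AhR from C was 0.26 ± 0.095 (95% interval 0.061 to 0.46, unadjusted p 0.014, adjusted p 1), with 4 of 4 arrays above C. In 0.5M and M livers it differed from C by -0.16 ± 0.095 and -0.099 ± 0.095, with adjusted p of 0.764 and 0.783. Its F test had the smallest p among the sensors, 0.00207 unadjusted and 0.24 adjusted.

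AhR livers were also set against the mixture groups, in comparisons added after the values were seen and between exposures that differ in kind and dose. Against 0.5M the difference of Arnt2 was 0.42 ± 0.095 (adjusted p 0.271) and against M it was 0.36 ± 0.095 (adjusted p 0.18), where 0 of 7 sensors passed beside 0.0228% of all transcripts against 0.5M and 0.266% against M. At an unadjusted p under 0.05, 3 of 7 sensors passed against 0.5M (Arnt2, Nr1i3 and Rxra, 9.04% of all) and 1 of 7 against M (Arnt2, 9.87% of all). Arrays did not overlap for 2 of 7 against 0.5M (Arnt2 and Ppara, beside 5.01% of all) and for 1 of 7 against M (Arnt2, beside 4.02% of all). Without the 5 arrays with transcripts of other tissues the Arnt2 difference against M came to 0.19, with M then only on slide 2. The dimmer Arnt2 probe stayed near background on all 16 arrays, so it gives no level to set beside the brighter one.

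PXR, encoded by Nr1i2 (NM_052980, chromosome 11), was well above background on all 16 arrays. The log2 ratios were -0.20, -0.20, 0.33 and 0.10 in 0.5M livers, -0.12, -0.29, 0.19 and 0.52 in M livers and 0.12, 0.044, 0.24 and 0.27 in AhR livers, against 0.23, 0.031, 0.42 and 0.25 in C livers. In every group both slide 2 arrays (replicates 3 and 4) lay above both slide 1 arrays, and the groups overlap. The means were 0.0094 ± 0.26 in 0.5M, 0.075 ± 0.36 in M and 0.17 ± 0.10 in AhR livers, against 0.23 ± 0.16 in C livers (SD, n = 4), which ranks C, AhR, M and 0.5M from high to low. With the slide in the model, the difference of 0.5M from C was -0.22 ± 0.10 (95% interval -0.44 to -0.0042, unadjusted p 0.0462, adjusted p 0.748), with 2 of 4 arrays below the lowest C array. M and AhR differed from C by -0.16 ± 0.10 and -0.062 ± 0.10 (adjusted p 0.657 and 1). Between the slides Nr1i2 did pass, as 1 of the 7 sensors, beside 8.01% of all transcripts: it was higher on slide 2 than on slide 1 by 0.34 ± 0.072 (SE, adjusted p 0.0143).

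CAR, encoded by Nr1i3 (NM_022941, chromosome 13), varied most. Its brighter probe, well above background on all 16 arrays, had log2 ratios of 0.27, -0.15, 0.27 and -0.32 in 0.5M livers, 0.45, 0.11, 0.49 and 0.61 in M livers and 0.25, 0.43, 0.43 and 1.10 in AhR livers, against 0.15, 0.47, 0.12 and 0.047 in C livers. AhR replicate 4 stood at the top of all arrays, 0.5M replicates 2 and 4 stood at the bottom, and the groups overlap. Means were 0.016 ± 0.30 in 0.5M, 0.42 ± 0.21 in M and 0.56 ± 0.38 in AhR livers, against 0.20 ± 0.19 in C livers (SD, n = 4). The rank from high to low was AhR, M, C and 0.5M, with no pair of neighbours past the test. 0.5M livers differed from C by -0.18 ± 0.18 (adjusted p 0.867), M livers by 0.22 ± 0.18 (adjusted p 0.736) and AhR livers by 0.36 ± 0.18 (adjusted p 1). Without AhR replicate 4 the difference in AhR livers came to 0.18. The second probe of the gene, well above background on 15 arrays, gave 0.12 for AhR against C and 0.092 for M against C, so the probes disagree in size.

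Between the doses of the mixture, the difference of Nr1i3 in M from 0.5M livers was 0.40 ± 0.18 (95% interval 0.023 to 0.78, unadjusted p 0.0388, adjusted p 0.728), with 3 of 4 M arrays above every 0.5M array. Its second probe gave 0.27. The difference came to 0.26 without 0.5M replicate 4.

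Rxra (NM_012805, chromosome 3), the partner that CAR, PXR and PPARA share, was well above background on 12 of 16 arrays. Its log2 ratios were -0.24, -0.22, -0.0081 and -0.28 in 0.5M livers, -0.025, -0.43, 0.34 and 0.20 in M livers and -0.063, 0.19, 0.40 and 0.14 in AhR livers, against 0.31, -0.20, 0.024 and -0.20 in C livers. Every 0.5M array lay below 0 with little spread, and the other groups spread on both sides of it. The means were -0.19 ± 0.12 in 0.5M, 0.023 ± 0.33 in M and 0.17 ± 0.19 in AhR livers, against -0.014 ± 0.24 in C livers (SD, n = 4). Differences from C were -0.17 ± 0.14, 0.038 ± 0.14 and 0.18 ± 0.14 in the order 0.5M, M and AhR, with adjusted p of 0.839, 0.955 and 1. Rxra ranked AhR, M, C and 0.5M from high to low, with no neighbours past the test. The M value had opposite signs on the slides, -0.28 on slide 1 and 0.36 on slide 2.

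Hnf4a (NM_022180, chromosome 3), the receptor that maintains hepatocyte identity, had group means within 0.16 of each other with the offset and within 0.39 without it. It was well above background on 11 of 16 arrays, with log2 ratios of -0.56, -0.32, -0.23 and -0.68 in 0.5M livers, -0.10, -0.60, -0.41 and -0.40 in M livers and -0.12, -0.41, -0.23 and -0.39 in AhR livers, against -0.12, -0.48, -0.35 and -0.34 in C livers. All 16 arrays lay below 0, and each group covered much the same range. Differences from C were -0.13 ± 0.12 for 0.5M, -0.057 ± 0.12 for M and 0.036 ± 0.12 for AhR, with adjusted p of 0.862, 0.914 and 1. The 95% interval for M against C ran from -0.32 to 0.2, and the groups ranked AhR, C, M and 0.5M from high to low within their spread.

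Ppara (NM_013196, chromosome 7), the fatty acid sensor, was well above background on 13 of 16 arrays. Its log2 ratios were -0.026, -0.19, -0.16 and -0.054 in 0.5M livers, 0.096, -0.18, -0.26 and -0.21 in M livers and 0.045, 0.098, 0.16 and 0.14 in AhR livers, against -0.031, -0.26, -0.69 and -0.061 in C livers. The AhR arrays formed a tight set above every C and every 0.5M array, while C replicate 3 lay far below the other C arrays. AhR replicate 1, the lowest AhR array, was not well above background, so this separation rests partly on a signal near background. Without the offset that array stood at 0.093 and the highest C array at -0.070. Means were -0.11 ± 0.080 in 0.5M, -0.14 ± 0.16 in M and 0.11 ± 0.052 in AhR livers, against -0.26 ± 0.30 in C livers (SD, n = 4). The difference of AhR from C, 0.37 ± 0.12 (SE), had a 95% interval of 0.12 to 0.63 and an unadjusted p of 0.00685, with 4 of 4 arrays above C. It came to 0.23 without C replicate 3 and to 0.38 without the 5 arrays with transcripts of other tissues. 0.5M and M livers differed from C by 0.15 ± 0.12 and 0.12 ± 0.12, with adjusted p of 0.821 and 0.785, so that Ppara ranked AhR, 0.5M, M and C from high to low.

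The differences of the dim sensors depended on the treatment of low signals. The offset of 50 added to every signal was as large as or larger than the liver signal of several sensors on many arrays. After background subtraction Ahr had Cy5 signals of 3.75 to 42 on slide 1 and 29.5 to 97 on slide 2, Hnf4a had 5.5 to 35.25 and 28.5 to 85.75, and Ppara had 10.75 to 70.25 and 41.5 to 103. Nr1i2 stood clear of it, at 353.5 to 2537 and 3238.5 to 6812.75. An offset of this size pulls the ratios of dim probes toward 0. Without it, an alternative added after the values were seen, the difference of Ppara in AhR livers was 0.61 ± 0.21 (adjusted p 1), that of Arnt2 was 0.34 ± 0.16 and that of Ahr turned to -0.032 ± 0.23. In M livers the signs of Ahr and Rxra turned too, to -0.033 ± 0.23 and -0.063 ± 0.26. Hnf4a moved to -0.35 ± 0.24 in 0.5M and -0.29 ± 0.24 in M livers, where they were -0.13 and -0.057 with the offset. In 0.5M livers Rxra moved to -0.37 ± 0.26, Ahr to -0.28 ± 0.23 and Arnt2 to -0.26 ± 0.16, and in M livers Arnt2 moved to -0.22 ± 0.16. The order of the groups given for Ahr and Rxra therefore holds only with the offset. Nr1i2 was at -0.22 ± 0.12 in 0.5M livers, against -0.22 ± 0.10 with the offset.

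The 95% intervals of the 7 sensors give a range for each gene under 1 setting, and do not bound the changes over all settings. Under plain background subtraction Ahr in M against 0.5M reached 0.85, outside its intervals with and without the offset. With the offset they reached at most 1.47-fold in 0.5M livers, 1.51-fold in M livers and 1.67-fold in AhR livers against C, and 1.71-fold between M and 0.5M. With no offset they reached 1.9-fold, 1.74-fold, 2.07-fold and 1.98-fold in the same order. For Nr1i2, the sensor least touched by the offset, the interval without it ran from 0.722-fold to 1.02-fold in 0.5M livers, from 0.758-fold to 1.07-fold in M livers and from 0.805-fold to 1.14-fold in AhR livers. A p that misses the threshold does not show that a sensor was the same in 2 groups, and changes inside these intervals are compatible with the data.

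**Figure D2:**
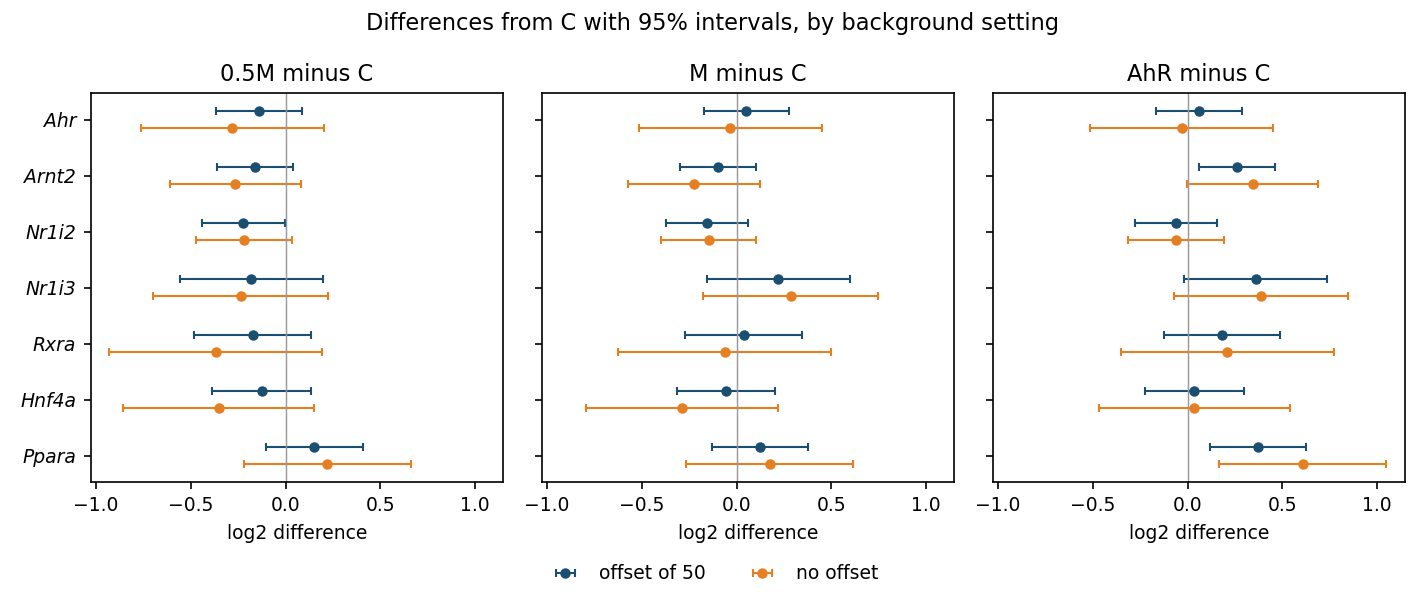
Log2 differences from C for the 7 tested sensors with 95% intervals (n = 4 arrays a group), with the offset of 50 and with no offset. Intervals without the offset are wider for all 7 genes in each panel, and Ppara in AhR livers is the 1 gene whose interval lies above 0 under both settings.

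Within slides the groups could be compared with 2 arrays each. For 0.5M against C all 7 sensors had the same sign on both slides. For AhR against C 6 of 7 did, and for M against C only 2 of 7 did (Hnf4a and Ppara). The same count over all transcripts is not given here. Of the 21 correlations between pairs of sensors 20 were positive, so the 7 signs are not independent. These counts are therefore descriptions. The difference of Ppara in AhR livers was 0.22 on slide 1 and 0.52 on slide 2, and that of Arnt2 was 0.21 and 0.32. Nr1i3 differed from C in AhR livers by 0.033 on slide 1 and 0.68 on slide 2, so its value came mostly from slide 2. There AhR replicate 4 stood at 1.10 and AhR replicate 3 at 0.43. Ahr in AhR livers had opposite signs, -0.12 and 0.24.

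**Figure D3:**
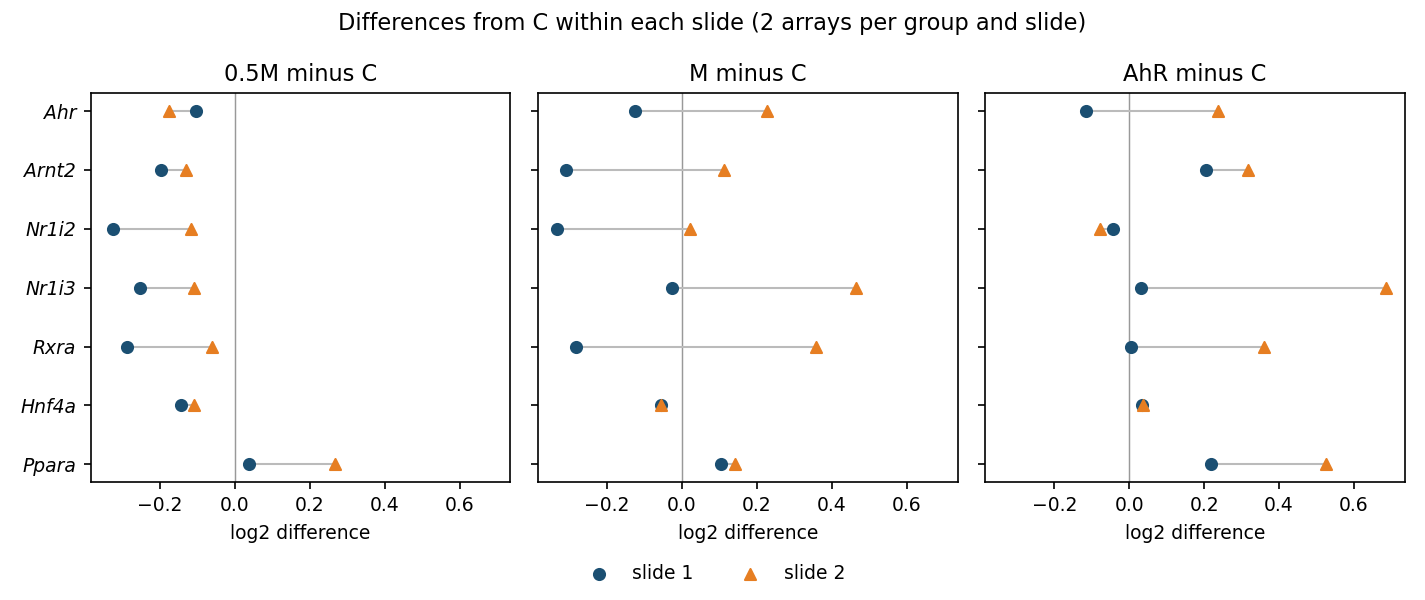
Log2 differences from C for the 7 tested sensors on slide 1 (circles) and slide 2 (triangles), each from 2 arrays a group. Both slides lie left of 0 for 6 genes in 0.5M livers, and 5 of the 7 genes change side in M livers.

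The targets of the same receptors were measured on the same arrays, from lists drawn up with earlier results of these data known. Of 5 tested AhR targets, 1 rose in 0.5M livers, 4 in M livers and 1 in AhR livers against C, and 0 fell. Cyp1a1, a P450 that metabolises polycyclic aromatic hydrocarbons, passed in all 3, with differences of 3.74 ± 0.18, 4.58 ± 0.18 and 2.46 ± 0.18 (SE) and adjusted p of 1.39e-08, 6.42e-10 and 7.19e-06. In M livers Cyp1a2 rose by 1.76 ± 0.17 and the glucuronosyltransferase Ugt1a6 by 1.1 ± 0.14. Cyp1b1 also passed in M livers, but all 4 C arrays had it near background, so no fold is given. Of 5 tested targets of CAR and PXR, 1 rose in 0.5M livers, 4 in M livers and 0 in AhR livers. Cyp2b2, the classic CAR target of rat liver, rose by 1.87 ± 0.22 in 0.5M livers and by 3.16 ± 0.22 in M livers, and in AhR livers its difference from C was 0.26 ± 0.22 with an adjusted p of 0.9996. Cyp2c6v1, Cyp3a23-3a1 and Ugt2b1 rose in M livers by 1.86 ± 0.17, 1.08 ± 0.17 and 1.19 ± 0.22.

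Set beside these targets, the sensors' own differences from C were all smaller than those of the targets that passed. Passing the threshold itself takes a large difference, so this ordering is a description and no test. In M livers, where Cyp2b2 rose by 3.16, Nr1i3 differed from C by 0.22, Nr1i2 by -0.16 and Rxra by 0.038. In the same livers Cyp1a1 rose by 4.58 and Ahr differed by 0.051. The median absolute difference of the 7 sensors in M livers was 0.0988, where that of all transcripts was 0.0889. In 0.5M and AhR livers the sensors' median absolute differences were 0.16 and 0.18, where those of all transcripts were 0.0834 and 0.0689. Without the offset, which pulls dim probes toward 0, the sensors' medians were 0.26 in 0.5M, 0.17 in M and 0.21 in AhR livers. Those of all transcripts were then 0.13, 0.15 and 0.11. The largest sensor difference from C was then 0.61, that of Ppara in AhR livers.

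**Figure D4:**
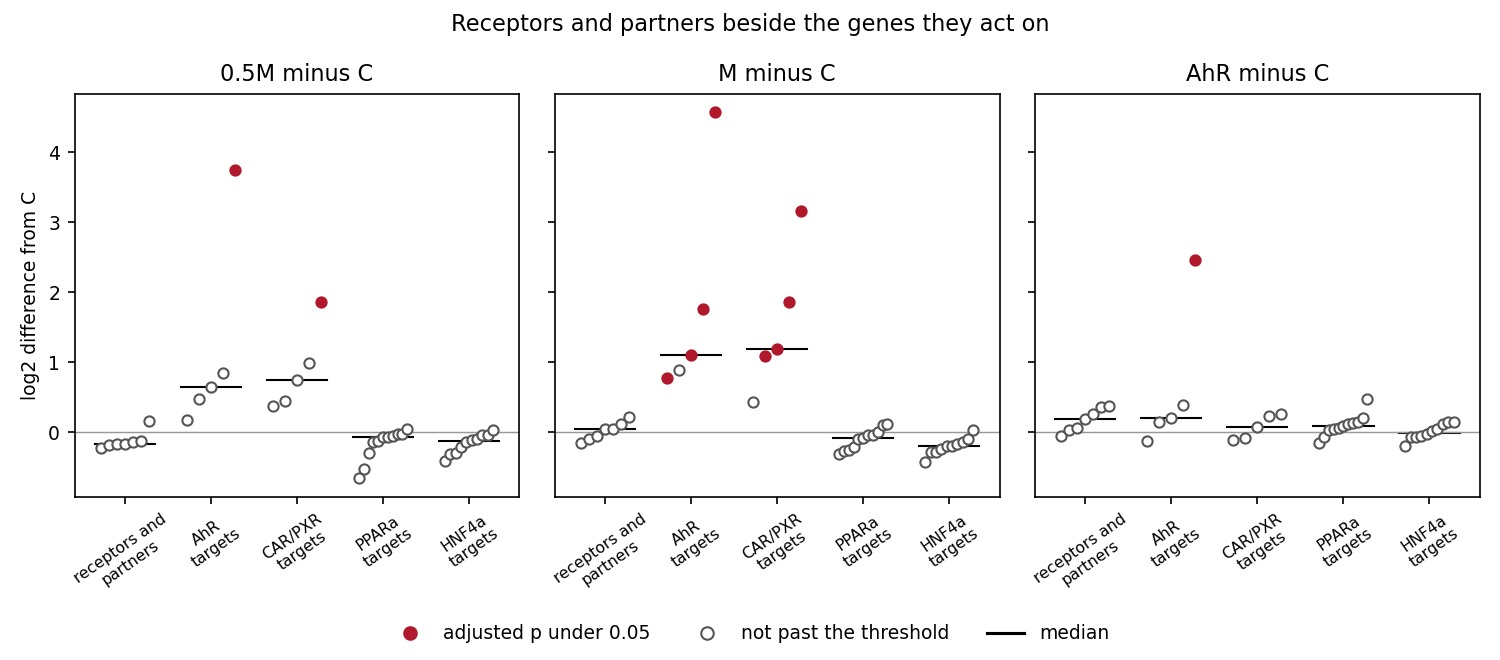
Log2 differences from C of the tested sensors and partners and of 4 lists of target genes, in 0.5M, M and AhR livers. Filled points passed an adjusted p of 0.05 and lines are medians, and the sensors stay between -0.22 and 0.37 while Cyp1a1 reaches 4.58.

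Targets of the other receptors did not pass in any comparison. Of 11 tested PPARA targets of fatty acid oxidation, 9 lay above C in AhR livers, with a median of 0.0944 where the median of all transcripts was 0.0002. In 0.5M livers 1 of 11 and in M livers 2 of 11 lay above C, with medians of -0.072 and -0.087. Hadha, a subunit of the mitochondrial trifunctional protein and the list's member with the smallest F test p, differed from C by -0.53 ± 0.16 in 0.5M livers (adjusted p 0.604). Of 10 tested HNF4A targets, 1 lay above C in 0.5M livers, 1 in M livers and 5 in AhR livers, with medians of -0.12, -0.2 and -0.0067. The clotting factor gene F7 differed by -0.41 ± 0.14 in 0.5M livers (adjusted p 0.657). Hepatocyte markers beside these had medians of -0.055, -0.084 and 0.056 in 0.5M, M and AhR livers, and their part in the target lists was not tested.

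The chaperones, coregulators and relatives of the sensors also did not pass the test against C. Of 8 tested chaperones and coregulators of the aryl hydrocarbon receptor and 5 of CAR and PXR, 0 passed in 0.5M, M or AhR livers by limma. Among 19 other nuclear receptors, Rxrb, the relative of Rxra, had differences of -0.27 ± 0.08 in 0.5M livers and -0.28 ± 0.08 in M livers (adjusted p 0.578 and 0.201). Among 8 liver transcription factors, Foxa3 had a difference of -0.51 ± 0.12 in M livers with 4 of 4 arrays below C (adjusted p 0.12), and among 7 other proteins of the bHLH-PAS family, to which Ahr and Arnt belong, the hypoxia factor Epas1 had -0.27 ± 0.13 in 0.5M livers (adjusted p 0.748).

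After the slide means were taken out, 20 of the 21 correlations between pairs of the 7 sensors over the 16 arrays were positive. They ran from -0.12 (Nr1i2 with Ppara) to 0.72 (Arnt2 with Rxra), with a median of 0.43, and 9 of 21 were above 0.5. No sensor was among the 50 transcripts with a symbol that correlated most with another sensor. All points share the Cy3 RNA and the array's depth, so these are descriptions. Differences between groups were left in the values, and the same count over all pairs of transcripts is not given here. Whether the sensors go together more than other transcripts was not tested. Nearest to Ahr were Itgb2, the beta chain of leukocyte integrins (r = 0.92), the hepatocyte growth factor gene Hgf (0.84) and Lst1 (0.83). Kupffer cell markers, whose part in this was not tested, had summed ratios of 5.159 to 8.174 in 0.5M, 6.155 to 7.969 in M and 6.802 to 8.872 in AhR livers, against 5.905 to 8.058 in C livers. Nearest to Arnt2 were Ccl27 (0.92), Ctnnd1 (0.91) and Stau1 (0.87). Nr1i2 lay nearest Naprt (0.83), Adgrl2 (0.81) and Taok1 (0.79), and Nr1i3 lay nearest Zbtb44 (0.84), Daxx (0.81) and Pald1 (0.8). For Rxra they were Hcar2 (0.9), Serpinb7 (0.88) and Bpifb6 (0.87), and for Hnf4a Nlgn2 (0.87), Rexo1 (0.86) and Tle2 (0.86). Ppara had the lowest, with Pla2g15 (0.8), Zfp36l2 (0.75) and Slc1a5 (0.73).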

How the data were processed

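Expression was measured on 16 Agilent 2-colour rat arrays, 4 for each of 4 groups. Per the file headers, the deposited scans of 62976 spots come from Agilent Feature Extraction 10.7.3.1 with median signal and background as scanner intensity, the software's own ratio on the log10 scale, and quality marks of 0 or 1, of the unit other. The authors also deposited a table of log2 values. Set against the scans, it held Cy5 over Cy3 without background correction and after loess (r 0.977 to 0.998 with the own array, at most 0.878 with another), with column medians of -0.0093 to 0.0125, and it served as an alternative.

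Here, signals were corrected with normexp (offset 50) and loess in limma 3.58.1 (R 4.3.3, data.table package version 1.17.8), with control spots given no weight and spots marked non-uniform or population outlier left out. A probe counted as above background on an array when at least 50% of its kept spots did, and was kept on at least 4 of 16 arrays (14517 of 30367 probes, 12 of them dropped for missing values). The brightest probe of a gene was used, which left 13139 transcripts, 8555 with a symbol from RefSeq. Groups were compared with lmFit and eBayes on all 16 arrays, in a model of group means plus slide. The tests were two-sided, with Benjamini-Hochberg adjustment within each of 6 comparisons and a threshold of 0.05. "4 of 4 arrays" means beyond every array of the other group. The steps were tested on simulated data.

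The genes, lists and most alternatives were chosen with earlier results of these data known. All 9 sensors are named whatever their values. Of each list, the text names the members past the threshold or else the one with the smallest F test p (not reported here for 2 lists), and of each sensor the 3 transcripts that correlate most. Same-numbered arrays were not treated as pairs, since 4 of 24 same-numbered pairs had correlations over 0.1 after group and slide means were taken out (range -0.41 to 0.19). The number of arrays limits the precision. Probe positions are not given, as the build named in the array headers differs from that of the promoter windows.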

Additional observations from a re-analysis of the deposited data

Results flagged for a closer look

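Ahr in 0.5M replicate 4 had a log2 ratio of -0.0455, while the nearest of the other 0.5M arrays stood at 0.08. The gap took a share of 0.884 of the group's range, above the 95% critical value of Dixon's test for 4 samples, which chance passes in about 1 of 20 groups. This array also held the highest sum of muscle markers, whose part in the value was not tested. The same search covered all 4 groups of each listed gene except Arnt, and no other value passed. With that many groups searched, chance alone can give such a value.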

How the results depend on the processing

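In 35 other settings, 0 sensors passed the threshold in any of the 6 comparisons or, in the 34 settings that allowed it, in the F test, and leaving out each array in turn gave 0 throughout. The replicate block in place of the slide also gave 0 in every comparison. Of 1446 recomputed differences of single sensors, 75 moved by more than the spread between arrays. The largest of these shifts came from the scanner software's own ratio and from plain background subtraction, where Ppara in AhR livers reached 0.78 and 0.72 and Ahr in M against 0.5M reached 0.63 and 0.85. Median centring moved Nr1i2 in M livers to -0.42, and the cause was not tested. Over all transcripts, the settings gave 0 to 3 calls in 0.5M against C (2 as reported), 1 to 55 in M against C (42), 0 to 1 in AhR against C (1), 0 to 7 in M against 0.5M (2), 0 to 5 in AhR against 0.5M (3), 0 to 35 in AhR against M (35) and 0 to 34 in the F test (23). Low signal on slide 1 limits what can be said of Ahr, Hnf4a, Rxra and Ppara.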
